A study of Mus musculus with 6 samples.

Results

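The macrophage and monocyte genes of the fetal mouse lung were a list of 31 genes, chosen by name as genes of fetal macrophages and monocytes and not for response to interferon, out of 55421 genes in the count table. All 31 had reads in each of the 6 libraries, and all 31 were among the 19042 genes with enough reads to be tested. The libraries held polyadenylated RNA of whole lung lobes from mouse embryos at E18.5, dissected without aeration. The wild-type group had 3 libraries and the knockout group had 3, the latter labelled Mll3FDC/FDC (Mll3 KO), homozygous for an altered Mll3; this gene, Kmt2c by symbol, encodes a histone methyltransferase that acts at enhancers. Strain, litter and the extent of the allele are not given in the sources used here, and nothing states that the samples came from separate embryos, so a p-value here reflects only how far these samples spread, which may be technical.

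Macrophages reach the fetal lung in waves from the yolk sac and the fetal liver, and the alveolar macrophages that clear surfactant mature from fetal monocytes around birth. Their survival depends on the colony-stimulating factor receptors, their identity on the transcription factor PU.1 (Spi1), and their uptake of particles on Fc receptors, complement C1q and scavenger receptors. In whole-lung RNA they are a minority, so fewer cells of this type and less RNA per cell cannot be told apart.

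Library totals ran from 20158689 to 23305306 reads. Kmt2c was at 168 ± 9.58 CPM (reads scaled to a common library size with TMM factors; SD, n = 3) in wild type and 158 ± 14.2 CPM in the knockout, so counts over the whole gene do not check the genotype. Xist was read 59951 times in knockout 3, which had 4 reads of Y-linked genes; elsewhere Xist had 6 to 27 reads and Y-linked genes 7414 to 9300. By these reads knockout 3 was female and every other library male, so sex was not balanced between the genotypes. Knockout 3 was therefore not from the same embryo as knockouts 1 and 2. Sample titles carry 1 of 2 prefixes of unstated meaning: the first covers knockout 1 with wild types 1 and 2, the second covers knockouts 2 and 3 with wild type 3.

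The label rests on the names of the genes, and the levels do not show which cells made the RNA. Summed over the 31 genes, the level was 839 to 962 CPM in wild type and 797 to 839 CPM in the knockout, 0.0809 to 0.0949% of all reads. Lcp1 (193 ± 5.74 CPM) and Stab1 (145 ± 15.4 CPM) had the highest wild-type means of the 31 genes. Itgam (1.33 ± 0.876 CPM) and Aif1 (1.95 ± 0.438 CPM) had the lowest. Markers of other leukocytes had lower sums, but over fewer genes, so the sums cannot be compared directly. Those of T cells, NK cells and ILCs summed to 0.933 to 2.75 CPM over 9 genes, of which 8 were under 1 CPM in every library. B cell markers summed to 6.72 to 8.80 CPM, mast cell and basophil markers to 2.89 to 9.03 CPM and neutrophil markers to 25.6 to 61.5 CPM. Dendritic cell markers, some shared with macrophages, summed to 53.8 to 65.4 CPM. Red cell precursors were abundant, with erythroid markers at 1790 to 3102 CPM. Some members are also made outside the lineage: Stab1 and Mrc1 are known from lymphatic and sinusoidal endothelium. Of 6 listed lymphatic markers, 2 were under 1 CPM in every library. Lyve1, also listed as a gene of tissue macrophages, was at 201 ± 6.61 and 197 ± 24.8 CPM in wild type and knockout. Prox1 was at 11.1 ± 2.07 and 11.2 ± 3.54 CPM.

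Per kilobase of exon, the levels of the members ran over a wide range. Ctss, the lysosomal protease cathepsin S, was highest in wild type at 32.9 ± 5.03 RPKM (CPM per kilobase of exon; SD, n = 3). It was followed by Tyrobp, the signalling adaptor DAP12, at 25.6 ± 4.88 RPKM and by the actin bundler Lcp1 at 20.3 ± 0.604 RPKM, each apart from its neighbour by more than either SD. Stab1 (14.1 ± 1.498 RPKM), C1qa (14.1 ± 1.40), C1qb (13.6 ± 1.47) and Fcer1g (13.5 ± 1.46) came next, within 1 SD of each other. The lowest were Trem2 (0.592 ± 0.0736 RPKM), Ms4a7 (0.531 ± 0.0254) and Itgam (0.265 ± 0.174), of which the first 2 differed by less than 1 SD of Trem2. Itgam, the integrin CD11b, had between 10 and 50 reads in a library, so its values carry a large counting error.

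**Figure D1:**
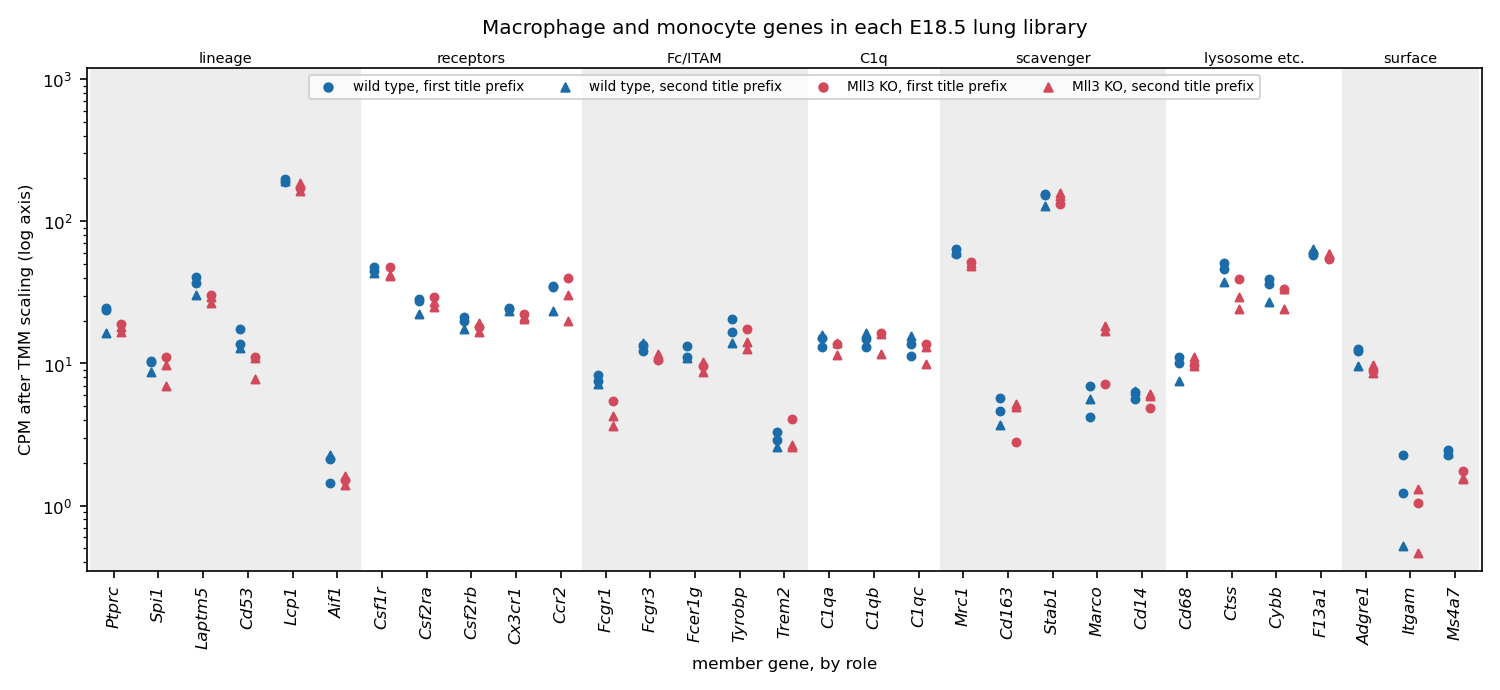
Level of each of the 31 genes in each library, in CPM after TMM scaling on a log axis, with genes grouped by role and points coloured by genotype and shaped by title prefix. The knockout points all lie below wild type in 8 genes (Fcgr1, Mrc1, Cd53, Ms4a7, Fcer1g, Lcp1, Fcgr3 and Cx3cr1), beside 8.45% of all tested genes. They all lie above in Marco, beside 8.6% of all tested genes. In the others the 2 genotypes overlap.

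Between genotypes, no member passed the test. Of the 31 genes, 0 rose, 0 fell and 31 did not pass at a Benjamini-Hochberg adjusted p under 0.05 in edgeR's quasi-likelihood test, where 0.305% of all 19042 tested genes were called lower and 0.063% higher (0.368% in all). At an unadjusted p under 0.05, 10 members were lower and 1 was higher, where 6.02% of all tested genes were lower and 4.71% higher (10.7% in all). DESeq2 called 1 member lower and 1 higher, beside 1.55% and 0.326% of all tested genes, and edgeR with a prefix term 1 lower and 0 higher, beside 2.54% and 0.746%. In point estimate 26 of the 31 were lower in knockout lungs, beside 47.4% of all tested genes. The median log2 fold change of the members was −0.17, that of all tested genes 0.01. The 3 knockout libraries lay below the 3 wild-type libraries in 8 members, beside 8.45% of all tested genes, and above them in 1, beside 8.6%. Of the 26 members with a lower estimate, 21 kept that sign in every refit without 1 library, and of the 5 with a higher estimate, 1 (Marco) did. The members come largely from the same cells and do not vary independently, so these counts are descriptions.

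**Figure D2:**
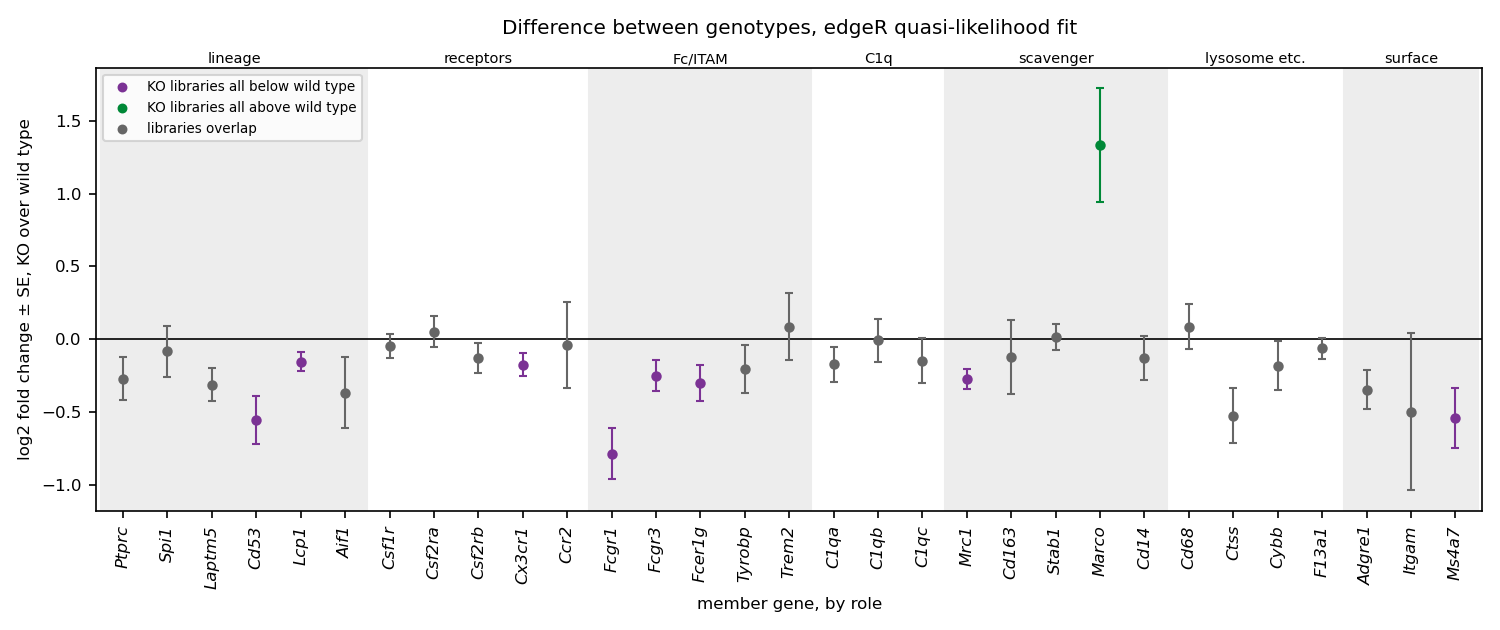
Log2 fold change of each member, knockout over wild type, with its standard error from the edgeR fit; colour shows whether the 3 knockout libraries all lie below, all above or among the wild-type libraries. Most estimates lie between 0 and −0.56, with Fcgr1 lower at −0.79 and Marco higher at 1.34.

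The differences were not spread evenly over the libraries. Within wild type, library 1 had the highest level of the 3 in 17 of 31 members and library 3 the lowest in 20. Within knockout, library 1 was highest in 17 members and library 2 lowest in 15. Against the wild-type mean of each gene, the median member was 0.10 and 0.05 higher on the log2 scale in wild type 1 and 2 and 0.16 lower in wild type 3 (−0.16). It was at −0.12, −0.24 and −0.19 in knockouts 1, 2 and 3. The value of wild type 3 therefore lay among those of the knockouts. Within the first prefix, knockout 1 against 2 wild-type libraries, the median difference was −0.20, with 23 of 31 members lower. Within the second, 2 knockouts against wild type 3 alone, it was −0.10, with 20 lower.

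The bases before the starts of the Fc receptor gene Fcgr1, the tetraspanin gene Cd53 and the scavenger receptor gene Marco are shown. Fcgr1 was chosen for the lowest p of the 31, Cd53 for the lowest p of the lineage and pan-leukocyte members and Marco for the largest rise. These 3 also had the 2 lowest estimates and the highest among the 31. Each sequence is the 150 bases before the RefSeq start on GRCm38.p6, 5′ to 3′ on the strand of the gene, with capitals at GAGGAA (the core letters bound by PU.1; TTCCTC on the other strand) or TTCNNNGAA (the GAS letters, the gamma-interferon activated site), searched on both strands.
Fcgr1, chr3:96293970-96294119, minus strand: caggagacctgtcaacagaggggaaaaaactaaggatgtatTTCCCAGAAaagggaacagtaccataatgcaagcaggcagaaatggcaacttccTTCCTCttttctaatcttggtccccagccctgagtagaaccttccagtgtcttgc
Cd53, chr3:106790150-106790299, minus strand: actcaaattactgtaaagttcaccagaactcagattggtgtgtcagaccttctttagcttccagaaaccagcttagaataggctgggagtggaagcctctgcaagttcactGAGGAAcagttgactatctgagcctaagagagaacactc
Marco, chr1:120505025-120505174, minus strand: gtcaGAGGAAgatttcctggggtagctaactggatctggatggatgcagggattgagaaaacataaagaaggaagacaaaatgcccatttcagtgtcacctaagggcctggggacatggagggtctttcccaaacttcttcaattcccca

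RefSeq promoter windows, from 250 bases before to 50 after the start, were matched by symbol for 24 of the 31 members. GAGGAA was found on either strand in at least 1 window of 19 of these 24, beside 31.3% of all 27025 genes with a window. TTCNNNGAA, whose letters read the same on both strands, was found in 1 of the 24, Fcgr1, at 109 bases before the start (position −109), beside 9.55% of all genes. The interferon-stimulated response letters, 2 GAAA runs with 2 bases between them, were found in 3 (Aif1, Ctss and Cybb), beside 3.99% of all genes. Matches of different motifs were counted separately even where they overlapped, and a match is a run of letters, not a measured binding site.

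Among the lineage and pan-leukocyte genes, 0 of 6 passed, all 6 were lower in point estimate and their median log2 fold change was −0.29. Ptprc, the leukocyte common antigen CD45, was at 24.7, 23.7 and 16.4 CPM in wild type 1 to 3 and at 19.0, 18.0 and 16.8 CPM in knockout 1 to 3. Wild type 3 was the lowest of all 6, so the groups overlapped. The log2 fold change of −0.27 ± 0.15 (SE; edgeR adjusted p = 0.56) was −0.35 within the first prefix and 0.08 within the second.

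Cd53 was at 17.4, 13.7 and 12.8 CPM in wild type and at 11.2, 7.73 and 10.9 CPM in the knockout. All 3 knockout values lay below all 3 wild-type values, at −0.56 ± 0.17 (edgeR adjusted p = 0.24), and the difference was −0.47 within the first prefix and −0.48 within the second. Laptm5, a lysosomal membrane protein of blood cells, was at 40.4, 36.8 and 30.2 CPM in wild type and 30.5, 26.5 and 29.5 CPM in the knockout. Its groups overlapped only through wild type 3 and knockout 1 (−0.31 ± 0.11, edgeR adjusted p = 0.34). Lcp1 was at 193 ± 5.74 CPM and 173 ± 10.4 CPM without overlap (−0.16 ± 0.07, edgeR adjusted p = 0.43).

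Spi1, which encodes PU.1, the master transcription factor of the myeloid lineage, was at 10.5, 10.3 and 8.65 CPM in wild type and at 11.1, 6.90 and 9.75 CPM in the knockout. The knockout libraries held both the highest and the lowest value, and the log2 fold change was −0.08 ± 0.17. Aif1, the actin-binding protein IBA1, was low in both genotypes, at 1.95 ± 0.438 and 1.51 ± 0.107 CPM.

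Of the growth factor and chemokine receptors 0 of 5 passed, at a median log2 fold change of −0.05. Csf1r, the receptor for CSF1 and IL-34 on which tissue macrophages depend, was at 47.4, 44.9 and 43.0 CPM in wild type and 47.4, 41.4 and 41.9 CPM in the knockout. The highest values of the genotypes were alike and the log2 fold change was −0.05 ± 0.08, with −0.12 to −0.01 over the refits without 1 library. The GM-CSF receptor chains, needed for alveolar macrophage maturation, were at 26.1 ± 3.18 and 27.0 ± 2.05 CPM (Csf2ra) and at 19.5 ± 1.88 and 17.9 ± 1.32 CPM (Csf2rb). Reads of Csf2rb can be split with its close copy Csf2rb2, so its level is uncertain.

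Cx3cr1, the fractalkine receptor of fetal macrophages and patrolling monocytes, was at 24.3, 24.7 and 23.3 CPM in wild type and at 22.1, 21.4 and 20.5 CPM in the knockout. The knockout values were all lower, by a small amount that was −0.15 within each prefix (−0.17 ± 0.08, edgeR adjusted p = 0.49). Ccr2, the receptor that brings classical monocytes into tissue, varied widely within both genotypes, at 35.3, 34.4 and 23.3 CPM in wild type and 40.2, 19.96 and 30.1 CPM in the knockout. Both the highest and the lowest library were knockouts, and the log2 fold change of −0.04 ± 0.29 changed sign over the refits without 1 library (−0.31 to 0.18).

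**Figure D3:**
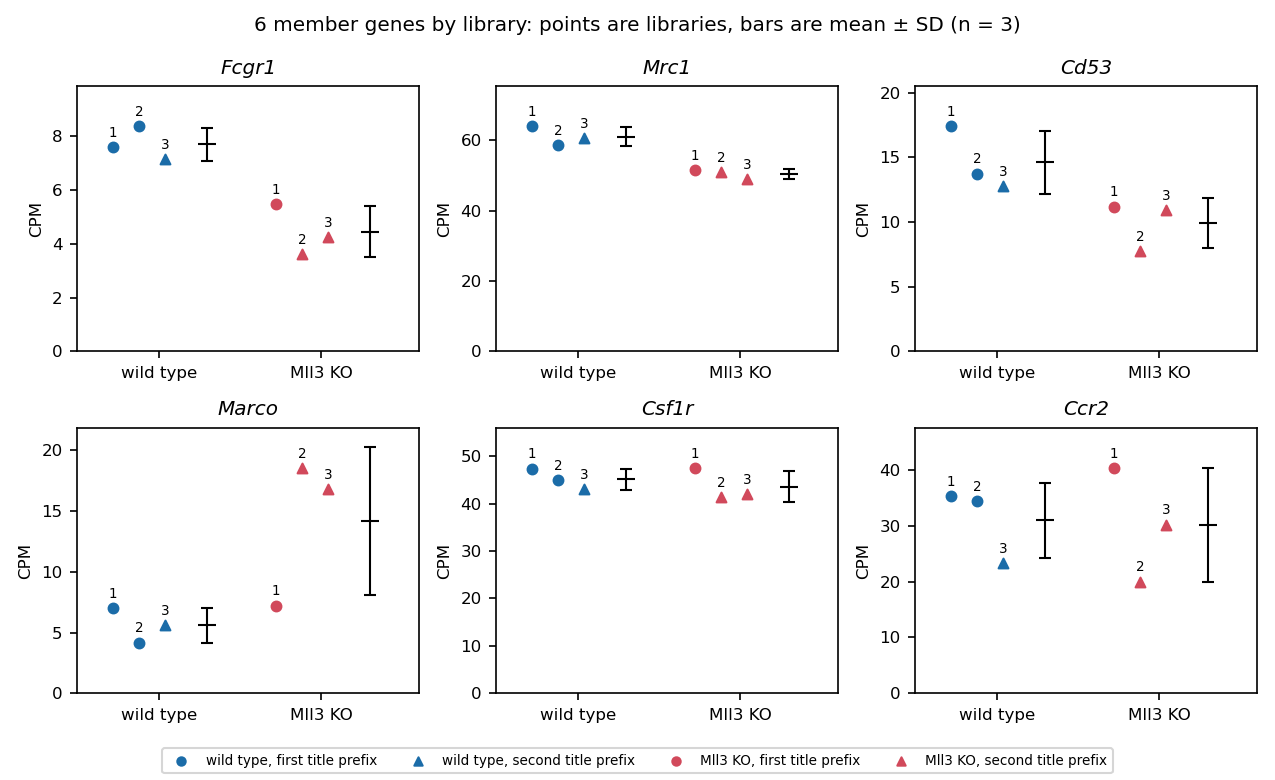
CPM of Fcgr1, Mrc1, Cd53, Marco, Csf1r and Ccr2 in each library, numbered by replicate and shaped by title prefix, with the mean ± SD of each genotype (n = 3); the genes were chosen with their values in view. Fcgr1, Mrc1 and Cd53 are lower in all 3 knockout libraries, Marco stands out in knockouts 2 and 3, and Csf1r and Ccr2 overlap between genotypes.

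Among the Fc receptors, TREM2 and their ITAM adaptors, 0 of 5 passed and 4 were lower in point estimate, with a median of −0.25. Fcgr1, the high-affinity IgG receptor CD64 (ENSMUSG00000015947, mm10 chromosome 3, 96282909 to 96293969), had the lowest p of all members. It was at 7.59, 8.36 and 7.15 CPM in wild type, from 152 to 192 reads, and at 5.48, 3.62 and 4.25 CPM in the knockout, from 74 to 131 reads. The genotypes did not overlap, and the log2 fold change was −0.79 ± 0.18 (SE; edgeR adjusted p = 0.11). It passed in DESeq2 (adjusted p = 0.019) and in edgeR with a prefix term (adjusted p = 0.035). The difference was −0.54 within the first prefix and −0.87 within the second.

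Fcgr1 is a known interferon-induced gene, and its promoter window shown above carries the GAS letters, as did windows of 9.55% of all genes. In the same libraries all 14 listed interferon-response genes were lower in point estimate, beside 47.4% of all tested genes. In edgeR 5 of 14 fell (Usp18, Ifit1, Irf7, Ifit3 and Xaf1), beside 0.305% of all tested genes. That list was chosen with earlier results of these data known. The summed level of the interferon-response genes was 319 to 410 CPM in wild type and 174 to 239 CPM in the knockout. Their part in the Fcgr1 difference was not tested, and 0 genes of the whole table were called in the refits without wild type 2 or wild type 3. The low-affinity IgG receptor gene Fcgr3, whose reads can be split with its relatives Fcgr2b and Fcgr4, was at 13.2 ± 0.836 and 11.1 ± 0.514 CPM (−0.25 ± 0.11, edgeR adjusted p = 0.43), and Fcer1g, the Fc receptor gamma chain, at 11.8 ± 1.27 and 9.55 ± 0.833 CPM (−0.30 ± 0.13, edgeR adjusted p = 0.43). In both the knockout libraries lay below wild type. Tyrobp was at 20.5, 16.8 and 13.96 CPM in wild type and 17.5, 12.6 and 14.2 CPM in the knockout, so that these groups overlapped. Trem2, a lipid-sensing receptor that signals through Tyrobp, was at 2.93 ± 0.364 and 3.11 ± 0.829 CPM.

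The 3 complement C1q genes, which lie side by side on chromosome 4 (136880129 to 136898803) and encode the chains of the molecule that starts the classical pathway, overlapped between genotypes. C1qa was at 15.1, 12.98 and 15.8 CPM in wild type and 13.6, 13.8 and 11.5 CPM in the knockout. C1qb was at 14.8, 13.2 and 16.4 CPM in wild type and 16.5, 15.99 and 11.6 CPM in the knockout, and C1qc at 13.8, 11.4 and 15.5 CPM and at 13.7, 13.01 and 9.89 CPM. In all 3 genes wild type 3 was the highest wild-type library and knockout 3 the lowest knockout library. Their log2 fold changes were −0.17, −0.01 and −0.15.

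Of the scavenger, lectin and pattern receptors 0 of 5 passed and 3 were lower in point estimate, with a median of −0.12. Mrc1, the mannose receptor CD206 (mm10 chromosome 2, 14229392 to 14332057), was at 63.9, 58.5 and 60.5 CPM in wild type and 51.4, 50.9 and 48.9 CPM in the knockout. The groups were separate and narrow, and the log2 fold change of −0.27 ± 0.07 (SE; edgeR adjusted p = 0.15) stayed at −0.31 to −0.24 over the refits without 1 library. It was −0.25 within the first prefix and −0.28 within the second.

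Marco, a class A scavenger receptor of alveolar macrophages that binds bacteria and particles (mm10 chromosome 1, 120474538 to 120505024), was at 7.00, 4.18 and 5.60 CPM in wild type and 7.20, 18.49 and 16.8 CPM in the knockout. Knockouts 2 and 3 stood well above the other 4 libraries, whereas knockout 1 was next to wild type 1. The log2 fold change of 1.34 ± 0.39 (SE) did not pass in edgeR (adjusted p = 0.29; 0.30 with a prefix term) and passed in DESeq2 (adjusted p = 0.00075). Within the first prefix the difference was 0.41 and within the second it was 1.66. Without knockout 1 the edgeR fit called it (1.65, adjusted p = 0.021), and without knockout 2 or 3 it was 1.10 and 1.19 and did not pass.

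Stab1, the clearance receptor stabilin, was at 155, 153 and 127 CPM in wild type and 133, 158 and 149.6 CPM in the knockout, with a fold change of 0.01 ± 0.09 (log2). Cd163, the haemoglobin scavenger receptor, was at 5.74, 4.62 and 3.71 CPM in wild type and 2.80, 4.94 and 5.23 CPM in the knockout. Knockout 1 was its lowest library, and its difference had opposite signs within the prefixes (−0.88 within the first and 0.45 within the second). Cd14, the lipopolysaccharide co-receptor, was at 6.11 ± 0.393 and 5.60 ± 0.652 CPM.

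Among lysosomal and effector genes, 0 of 4 passed. Ctss was at 50.6, 46.4 and 37.2 CPM in wild type and 39.4, 24.1 and 29.6 CPM in the knockout. Wild type 3 lay below knockout 1, which was the only overlap, and the log2 fold change was −0.53 ± 0.19 (edgeR adjusted p = 0.38). Cd68, a lysosomal glycoprotein of macrophages, was at 9.58 ± 1.86 and 10.2 ± 0.849 CPM (0.09 ± 0.16). Cybb, the catalytic subunit of the phagocyte NADPH oxidase, was at 34.3 ± 6.25 and 30.2 ± 5.29 CPM. F13a1, a transglutaminase subunit made by tissue macrophages and platelets, was at 60.3 ± 3.10 and 57.7 ± 2.65 CPM, with a log2 fold change of −0.06 ± 0.07.

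Of the surface identity genes, 0 of 3 passed and all 3 were lower in point estimate. Adgre1, the macrophage adhesion receptor bound by the F4/80 antibody, was at 12.3, 12.5 and 9.55 CPM in wild type and 8.79, 8.51 and 9.75 CPM in the knockout. Wild type 3 fell among the knockouts (−0.35 ± 0.14, edgeR adjusted p = 0.39). Ms4a7 was at 2.26, 2.48 and 2.35 CPM in wild type and 1.76, 1.57 and 1.54 CPM in the knockout, without overlap but at few reads (−0.54 ± 0.20, edgeR adjusted p = 0.36). Itgam ran from 0.517 to 2.26 CPM in wild type and from 0.467 to 1.32 CPM in the knockout.

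To see how members differed among themselves, each was set against the geometric mean of Ptprc, Spi1, Laptm5 and Cd53 in the same library. That reference was at 20.7, 18.7 and 15.3 CPM in wild type and 16.3, 12.6 and 15.1 CPM in the knockout, overlapping through knockout 1. Because that reference had a lower mean in the knockout, ratios to it shifted upward: 24 of 31 members had a higher ratio, with a median difference of 0.13 on the log2 scale, and 17078 of 19028 tested genes with a read in every library did, with a median of 0.31. The 31 members include Ptprc, Spi1, Laptm5 and Cd53 themselves, whose differences on this scale cancel by construction. On this scale 25 of 31 members overlapped between genotypes. All knockout libraries were lower in 3, beside 0.835% of all tested genes, and higher in 3, beside 24.3%. Fcgr1 remained lower by 0.50 on the log2 scale (−1.24 ± 0.18 in wild type and −1.74 ± 0.14 in knockout, log2 ratio ± SD, a difference of −0.50), as did Cd53, itself part of the reference (−0.26), and Ctss (−0.24). Marco was higher by 1.56, Cd68 by 0.41 and Csf2ra by 0.36, whereas Mrc1 overlapped at a difference of 0.03. These ratios were not tested.

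**Figure D4:**
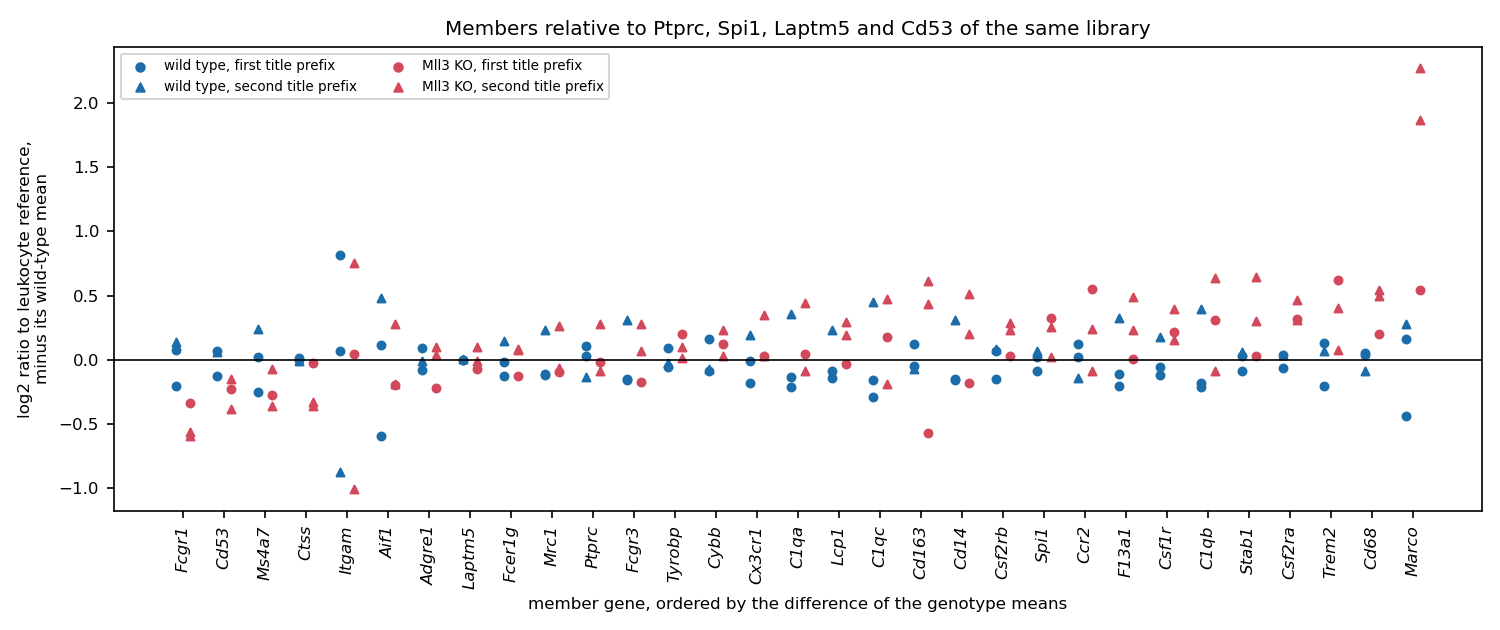
Log2 ratio of each member to the geometric mean of Ptprc, Spi1, Laptm5 and Cd53 in the same library, minus its wild-type mean, with genes ordered by the difference between genotype means. Fcgr1 is at the low end at −0.50 and Marco at the high end at 1.56. Of the 31 differences, which include those of the reference genes, 24 lie above 0, most with overlapping genotypes. The same held for 17078 of 19028 tested genes with a read in every library, as far as lying above 0.

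The factors and ligands that act on these cells were read from a separate list. Of 20 listed CSF ligands and myeloid transcription factors 19 were tested, 0 passed in edgeR and the median log2 fold change was −0.02. At an unadjusted p under 0.05 there were 3, beside 10.7% of all tested genes. DESeq2 called 1 lower, beside 1.55%. Irf8, a transcription factor needed for monocyte development and also induced by interferon, had the lowest p, at 26.7, 27.9 and 28.1 CPM in wild type and 18.4, 21.3 and 19.8 CPM in the knockout. All knockout values were lower (−0.48 ± 0.09, edgeR adjusted p = 0.055; 0.013 with a prefix term, and 0.0040 in DESeq2). The fit with a prefix term called 2 of the list lower, beside 2.54% of all tested genes. These were Irf8 and Runx1, a blood transcription factor gene named here after its values were seen. Runx1 was at 33.7, 34.9 and 51.6 CPM in wild type and 22.8, 38.6 and 39.2 CPM in the knockout, with overlap across the prefixes (−0.26 ± 0.27, edgeR adjusted p = 0.79; 0.011 with a prefix term, and 0.96 in DESeq2). The ligand gene Csf1 was at 22.7 ± 0.731 and 18.8 ± 1.16 CPM (−0.27 ± 0.09, edgeR adjusted p = 0.27) and the sterol-sensing factor gene Nr1h3 at 38.6 ± 1.66 and 32.4 ± 3.62 CPM (−0.25 ± 0.10, edgeR adjusted p = 0.37).

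Among other genes of tissue macrophages 0 of 23 tested passed in edgeR, and 9 reached an unadjusted p below 0.05, beside 10.7% of all tested genes. In point estimate 19 were lower, beside 47.4% of all tested genes, with a median of −0.32. Fcrls, an Fc receptor-like scavenger gene, was at 11.7, 10.1 and 12.2 CPM in wild type and 7.37, 6.70 and 6.91 CPM in the knockout (−0.69 ± 0.13, edgeR adjusted p = 0.055; 0.018 with a prefix term, and 0.0041 in DESeq2). The chemokine gene Ccl6 was at 17.4 ± 2.45 and 9.58 ± 2.31 CPM (−0.86 ± 0.17, edgeR adjusted p = 0.087; 0.065 with a prefix term, and 0.00058 in DESeq2). Lyz2, which alveolar type 2 cells also make and whose reads can be split with Lyz1, was at 961 ± 237 and 502 ± 96.1 CPM (edgeR adjusted p = 0.15; 0.19 with a prefix term, and 0.020 in DESeq2). Of the 23 genes DESeq2 called 4 lower, and edgeR with a prefix term 1, beside 1.55% and 2.54% of all tested genes.

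The lists of other monocyte genes (14 tested, median −0.40) and of other alveolar macrophage genes (13 tested, median −0.33) each had 1 gene that fell, beside 0.305% of all tested genes. Both of these genes are also genes of lung endothelium. DESeq2 called 4 monocyte and 2 alveolar macrophage genes lower, beside 1.55% of all tested genes, and edgeR with a prefix term 2 and 1, beside 2.54%. Ly6c1 fell from 30.3 ± 2.34 to 17.3 ± 1.94 CPM (−0.81 ± 0.10, edgeR adjusted p = 0.021), and its reads can be split with Ly6c2. Car4, a carbonic anhydrase gene of capillary cells, fell from 23.7 ± 3.14 to 11.5 ± 2.18 CPM (edgeR adjusted p = 0.035). Of 5 endothelial markers 0 passed in edgeR or DESeq2 and 2 had an unadjusted p under 0.05; their summed levels were 1639 to 1960.1 CPM in wild type and 1541 to 1643 CPM in the knockout, overlapping at the ends, and their part in these differences was not tested. Neither call was made in the refits without wild type 2 or wild type 3, where 0 genes were called. Plac8, known from monocytes and other leukocytes, was at 16.9, 9.41 and 12.1 CPM in wild type and 5.94, 4.99 and 5.60 CPM in the knockout and did not pass in the genotype-only fit (−1.21 ± 0.21, edgeR adjusted p = 0.051; 0.036 with a prefix term and 1.4e-05 in DESeq2). Siglecf, the sialic acid receptor of mature alveolar macrophages, was under 1 CPM in every library, from 0.0467 to 0.406 CPM, and was not tested.

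No gene of the remaining lists passed in the genotype-only edgeR fit. DESeq2 called 1 lung epithelium marker higher and 1 lower, and edgeR with a prefix term called 1 lower. The prefix term fit also called 1 marker of T cells, NK cells and ILCs lower. For the phagocyte NADPH oxidase 0 of 5 passed in edgeR or DESeq2, 0 had an unadjusted p under 0.05, and the median was −0.11. Among leukocyte signalling genes 0 of 20 passed in edgeR, with 1 at an unadjusted p under 0.05 and a median of −0.11. DESeq2 called 1 of them lower, and edgeR with a prefix term called 1 lower. Of 13 tested genes of classical complement and other Fc and complement receptors, 0 passed in edgeR or DESeq2 and 3 had an unadjusted p under 0.05 in edgeR. DESeq2 gave no adjusted p for Fcgr4 and Itgax, both among those 3, so it could not call them. Fcgr4, a further activating IgG receptor, had 0.847 ± 0.281 and 0.263 ± 0.0840 CPM (−1.68 ± 0.42, edgeR adjusted p = 0.15), and the C1 inhibitor gene Serping1, which many lung cells make, had 187 ± 12.4 and 158 ± 10.6 CPM (edgeR adjusted p = 0.24). Among dendritic cell markers 0 of 5 tested passed in edgeR or DESeq2, 2 had an unadjusted p under 0.05, and the MHC class II gene H2-Aa was at 3.57, 3.09 and 2.96 CPM in wild type and 1.84, 2.05 and 2.01 CPM in the knockout, without overlap (−0.71 ± 0.19, edgeR adjusted p = 0.19).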

How the data were processed

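Per the file headers, raw counts per gene were made by the authors with featureCounts 1.6.3 on mm10 with Ensembl 98, reverse stranded (setting 2) and a mapping quality of at least 1; the submitters' processing notes also name GSNAP and DESeq2 1.24.0. A further table deposited by the authors gives a normalized signal, in which each library's counts are scaled by its own size factor; scaled back, 100% of its values came out whole within 0.1 read and equal to the count table, and edgeR on them called 70 genes and 0 members. It supplied the gene symbols. Spike-in rows (92) were left out.

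The deposited counts were tested with edgeR 4.0.16 (R 4.3.3): filterByExpr, TMM, quasi-likelihood with genotype as the only term, and Benjamini-Hochberg adjustment over all 19042 genes. SE is the absolute log2 fold change over the square root of F. The fit was also run on simulated data, but the share of changes it recovered is not given here. Alternatives were DESeq2 1.42.0, limma 3.58.1, other scaling, filters and thresholds, a prefix term, and leaving out each library. Libraries of 1 genotype differed by more than sampling noise (chi-square over degrees of freedom 9.27 to 23.0).

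Members and lists were chosen with earlier results of these data known. Named genes were all members, every listed gene past the threshold, and otherwise up to 3 genes per list with the lowest p, of which those nearest the members' roles are given; Lyve1, Prox1, Siglecf and Runx1 were added after their values were seen. Precision is limited by read number, mostly for Itgam, Aif1, Ms4a7 and Trem2. Some listed genes are not reported here.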

Additional observations from a re-analysis of the deposited data

How the results depend on the processing

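For the members, 0 rose and 0 fell in edgeR with TMM, RLE or library-size scaling, with the stricter filter, at an adjusted p under 0.1, in limma voom and in limma on the normalized signal. DESeq2 called 1 higher (Marco) and 1 lower (Fcgr1), and edgeR without a filter called 2 lower (Fcgr1, adjusted p = 0.0043, and Cd53, 0.022). With the title prefix as a term (a replicate block, although the labels do not say that the prefix pairs the samples) 1 was lower (Fcgr1). Between a wild-type and a knockout library, deviations correlated at −0.11 to 0.25 with the same prefix. With different prefixes they correlated at −0.28 to 0.3, so libraries of the same prefix were no more alike. Over the refits without 1 library, 0 to 1 members were higher (1 without knockout 1, Marco) and 0 lower. The members' median log2 fold change was −0.15 with the prefix term and −0.24 to −0.14 without 1 library. Of the 26 members lower in point estimate, 21 stayed lower under every one of 16 alternatives. That is the same number as over the refits without 1 library alone. The changed threshold and the scaled-back counts left the estimates as they were, so they could not change a sign.

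Over all genes, edgeR called 12 higher and 58 lower, DESeq2 62 and 295, limma voom 0 and 8, edgeR without a filter 103 and 340, with the prefix term 142 and 483, and at an adjusted p under 0.1 33 and 135. Without 1 library the counts were 0 to 5 higher and 0 to 36 lower; no gene was called without wild type 2 or wild type 3, where 781 and 611 genes were higher and 1173 and 1018 lower at an unadjusted p under 0.05. The causes were not tested.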
